A study of Mus musculus with 6 samples.

Results

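Mouse C3H10T1/2 cells, an established line of mesenchymal cells that can be driven towards bone, fat or cartilage, were sequenced before and after 7 days in osteogenic medium, and the change shared by the 3 derivatives of the line is described here. The comparison took all 6 libraries of the series, 3 at day 7 against 3 at day 0, with the derivative as a block. The derivatives were shControl, which carries a control hairpin and whose genotype is labelled WT, shNFIB, which carries a short hairpin RNA against Nfib, the gene of a nuclear factor I transcription factor, and shMLL1, which carries one against Kmt2a, the gene of the histone H3 lysine 4 methyltransferase MLL1. Day 0 cells were untreated, with none of the osteogenic agents added. Day 7 cells had received dexamethasone at 0.1 µM, β-glycerophosphate at 20 mM and ascorbic acid 2-phosphate at 100 µg/mL. No day 7 library without this medium was analysed here, so medium, time in culture and cell density cannot be told apart. Each line and day had 1 library, so the spread that the test uses is the spread of the day 7 change among the lines, and whether the change differs between lines has no test. The hairpin lines are each 1 derivative, and the labels do not say whether they are clones or pools.

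In osteogenic medium, β-glycerophosphate is a source of phosphate, ascorbic acid is needed by the enzymes that hydroxylate collagen, and dexamethasone is a synthetic agonist of the glucocorticoid receptor. The liganded receptor enters the nucleus and binds glucocorticoid response elements, and its targets in many cell types include the co-chaperone gene Fkbp5 and the leucine zipper gene Tsc22d3. In cells that have left the division cycle, E2F factors and the DREAM complex keep the genes of replication and mitosis low, through promoter elements that include E2F sites, CCAAT boxes and the cell cycle genes homology region (CHR).

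The libraries held between 21608680 and 34774066 counts, and genes were measured as counts and as counts per 1000000 (CPM) after TMM scaling, which corrects for differences in library composition. Values are given below in the order shControl, shNFIB and shMLL1. The hairpin targets checked the labels: Nfib had 116, 35.3 and 65.5 CPM at day 0 and 83.5, 8.15 and 72.7 CPM at day 7, lowest in shNFIB on both days, and Kmt2a had 74.7, 86.5 and 30.9 CPM at day 0 and 66.3, 94 and 34.8 CPM at day 7, lowest in shMLL1 on both days. Neither target passed the test of the day (adjusted p = 0.175 for Nfib and 0.879 for Kmt2a). Of 14 markers of mesenchymal cells, 13 had enough counts to be tested, and the summed level of the list was 12700, 18200 and 8140 CPM at day 0 and 6070, 9000 and 5890 CPM at day 7. Of 13 macrophage and blood markers, 8 had under 10 counts in every library, Ptprc and Adgre1 among them, and the summed level of the list was 24.9, 23.3 and 25.7 CPM at day 0 and 27.4, 17.9 and 19.5 CPM at day 7. Reads on mitochondrially encoded genes took 2.01 to 2.65% of the counts at day 0 and 4.78 to 7.77% at day 7. With these genes left out before scaling, 2890 genes rose and 2692 fell, against the 2796 and 2760 given next.

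A large share of the transcriptome moved in the same direction in all lines. Of 16660 genes tested, 2796 rose and 2760 fell at day 7 at an adjusted p under 0.05 (quasi-likelihood test of edgeR, p-values adjusted by Benjamini-Hochberg), which is 16.8% and 16.6% of the genes tested. Scaling by library size alone moved the median of all genes to 0.14 on the log2 scale and the share of calls that were rises from 50.3% to 60.8%, with 3287 rises and 2116 falls. The sign of the change was the same in all 3 lines for 2790 of the 2796 rises and 2755 of the 2760 falls. Among called genes this is largely set by the test, whose error is the spread of the change among the same lines. Of all genes tested, 66.6% had the same sign in all 3 lines. The fitted log2 fold change had a median of 1.74 among the rises and -1.21 among the falls, where the median of all genes was 0. Among the rises the median change within shControl was 1.69, within shNFIB 1.25 and within shMLL1 1.84, and among the falls it was -1.20, -1.08 and -1.35. Without shControl, 967 genes rose and 1076 fell, and the counts of list members in that setting given further on are to be read against this loss. It was larger than that of the other fits with 1 line fewer: 2534 rose and 2226 fell without shNFIB, and 2147 and 2666 without shMLL1. The calls thus depended most on shControl, and why was not tested.

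A stricter set moved over 2-fold within every line. It held 1531 of the rises, or 9.19% of the genes tested, and 1064 of the falls, or 6.39%. Over 4-fold within every line were 373 rises and 358 falls. Of 3463 genes that were over 2-fold higher at day 7 within shControl, 2213 were called in the fit over the lines, and of 2386 that were over 2-fold lower, 1767 were. Counts were near 0 on one day for part of the called genes: 171 of the rises had at most 3 counts in every day 0 library and 65 of the falls had at most 3 counts in every day 7 library. For such genes the counts are given below in place of a fitted fold change.

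**Figure D1:**
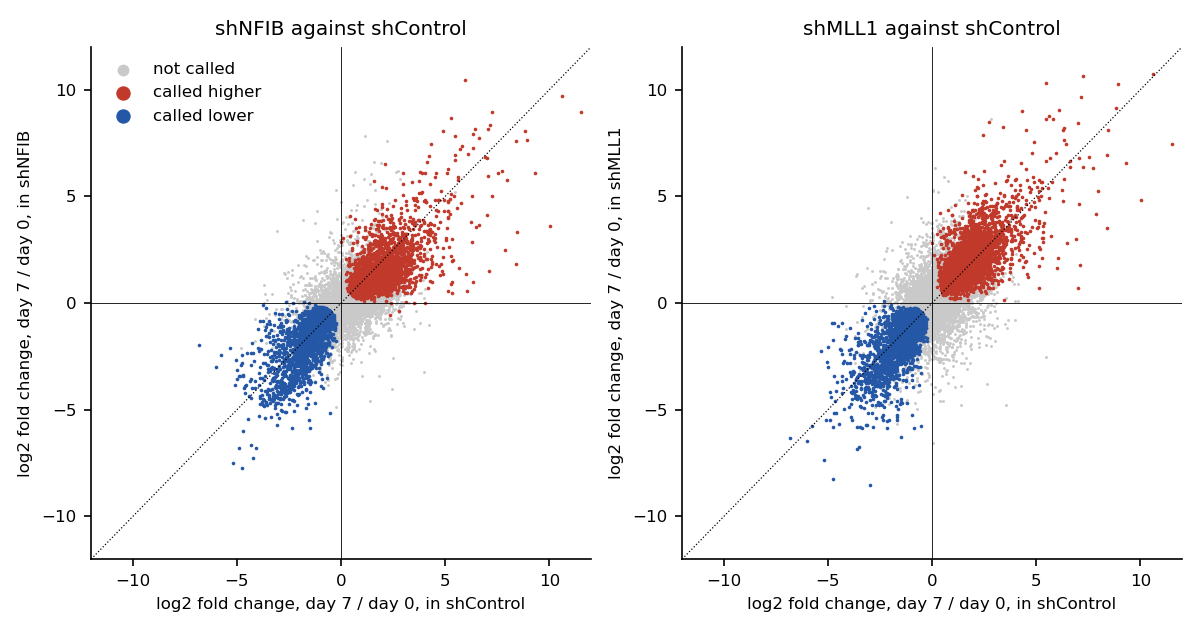
Log2 fold change at day 7 against day 0 within shNFIB (left, y axis) and within shMLL1 (right, y axis) against that within shControl (x axis), 1 point for each of the 16660 genes tested. Red points are the 2796 genes called higher and blue points the 2760 called lower, and they lie mainly towards the upper right and the lower left corners, while genes that were not called spread around 0.

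Functional groups were followed with lists of genes, and each list is described by how many of its tested members rose or fell, to be read against the shares of 16.8% and 16.6% of all genes. The 7 lists of the division machinery and the lists of sterol synthesis and of amino acid supply lay below 0 in every line, and the list of glucocorticoid response genes lay above 2 on the log2 scale in every line. Within a list the lines differed most for the interferon response, where the medians ran from -1.40 in shMLL1 to 3.08 in shNFIB.

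**Figure D2:**
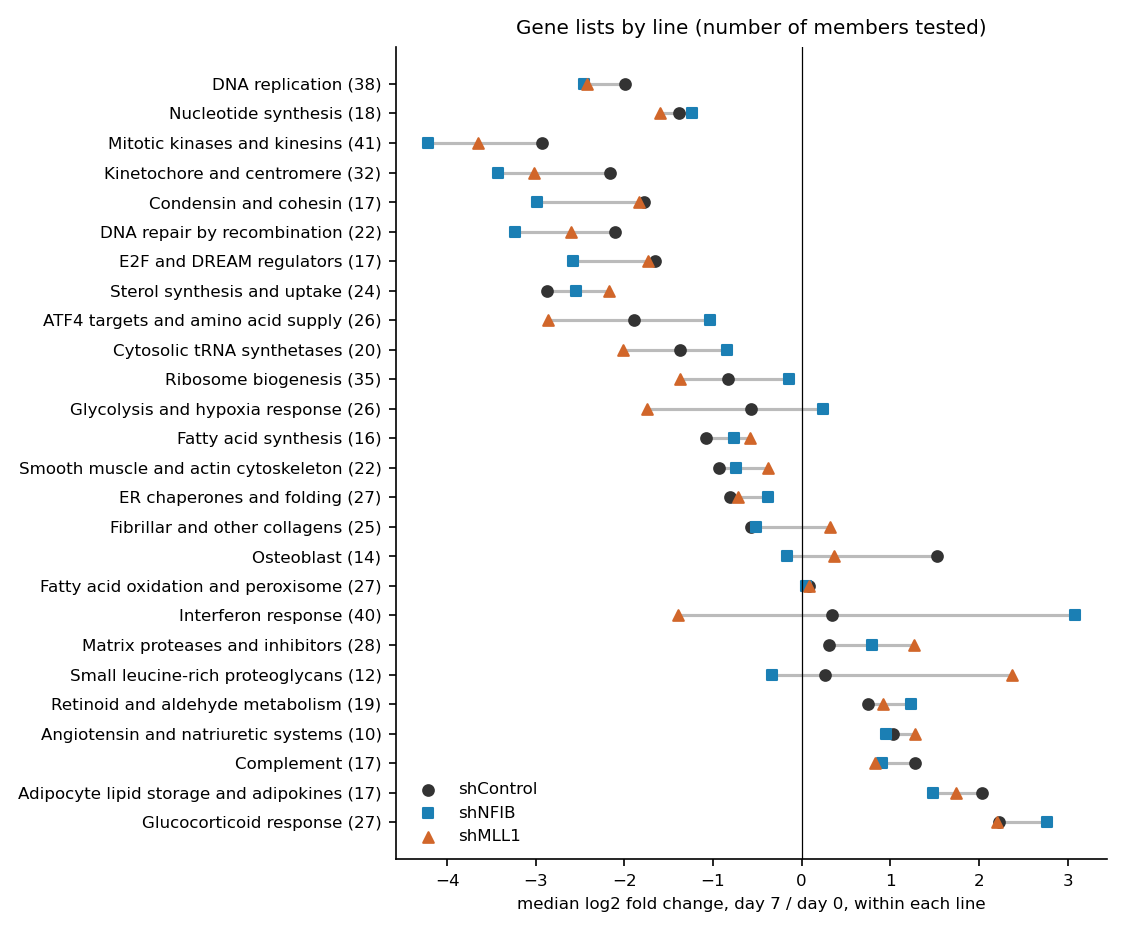
Median log2 fold change at day 7 against day 0 (x axis) over the tested members of 26 gene lists (y axis, with the number tested), computed within shControl (circles), shNFIB (squares) and shMLL1 (triangles). The bar joins the lowest and the highest line: the 7 division cycle lists at the top lie below 0 in every line, the glucocorticoid list at the bottom lies above 0 in every line, and the bar of the interferon list crosses 0.

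The genes that copy DNA fell together. Of 38 replication genes tested, 36 fell and 0 rose, with a median log2 fold change of -2.31, and 31 were over 2-fold lower within every line. The summed level of the list was 2650, 3250 and 2870 CPM at day 0 and 772, 677 and 656 CPM at day 7. Mcm5, a subunit of the helicase that unwinds DNA at replication origins, had 156, 156 and 156 CPM at day 0 and 14.9, 9.1 and 9.84 CPM at day 7. Its day 0 levels were alike in the 3 lines and lay far above every day 7 level (log2 fold change -3.82 ± 0.23, SE). The other helicase subunits tested, Mcm2, Mcm3, Mcm4, Mcm6 and Mcm7, had log2 fold changes of -3.07, -2.91, -2.56, -2.36 and -1.80, and all fell. The genes that load the helicase fell as well: Cdc6 went from 35.5, 40.9 and 25.3 CPM to 4.2, 3.92 and 3.32 CPM and Cdt1 from 53.9, 66.4 and 74 CPM to 17.5, 10.5 and 11.5 CPM. Ticrr, which is needed to fire origins, fell most in the list (log2 fold change -3.84 ± 0.32, SE), with 2.23, 1.35 and 1.15 CPM left at day 7. Pcna, the sliding clamp, fell less, from 234, 252 and 255 CPM to 127, 95 and 86.5 CPM (log2 fold change -1.28 ± 0.22, SE). Gins4 and Dna2 did not pass the test, with log2 fold changes of -0.62 and -0.54.

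Genes that make the nucleotides for this DNA fell in 14 of 18 cases tested, with 0 rises and a median of -1.31. Rrm2, the small subunit of ribonucleotide reductase that is made in S phase, had 149, 205 and 154 CPM at day 0 and 23, 14.5 and 17.3 CPM at day 7. Tk1, thymidine kinase, had 157, 206 and 219 CPM at day 0 and 27.5, 12.1 and 19.9 CPM at day 7. In both genes every day 0 library lay above every day 7 library, and shNFIB had the lowest level at day 7. Tyms, thymidylate synthase, had a log2 fold change of -2.42. Of the genes of purine synthesis from scratch, Ppat, Gart and Atic fell by 1.18, 0.78 and 1.33 on the log2 scale, and Paics, Pfas and Adsl did not pass the test.

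Mitotic genes fell further than replication genes by their list medians. All 41 mitotic kinases, cyclins and kinesins tested fell, all were over 2-fold lower within every line, and the median log2 fold change was -3.62, and the lines stood at -2.93, -4.21 and -3.65. Summed over the list the level was 3870, 6030 and 4160 CPM at day 0 and 532, 384 and 381 CPM at day 7. Plk1, a kinase that drives entry into mitosis and spindle assembly, had 70.4, 130.3 and 66.4 CPM at day 0 and 5.54, 3.01 and 3.77 CPM at day 7, and no day 7 library came near a day 0 library (log2 fold change -4.40 ± 0.38, SE, adjusted p = 0.000687). Bub1b, of the spindle checkpoint, went from 85.7, 120.2 and 78 CPM to 6.63, 4.16 and 3.89 CPM. Kif11, the kinesin that pushes the spindle poles apart, had 133, 205 and 118 CPM at day 0 and 8.76, 7.61 and 7.99 CPM at day 7, with within-line log2 fold changes of -3.92, -4.74 and -3.87. Cdk1, the kinase that mitotic cyclins activate, fell less than most of the list, with 215, 214 and 290.3 CPM at day 0 and 53.4, 30.5 and 39.4 CPM at day 7 (log2 fold change -2.57 ± 0.25, SE), and Ccnb1, its cyclin B partner, fell by 3.83. Anln, a scaffold of the ring that divides the cell, went from 265, 551 and 286 CPM to 22.6, 20.2 and 14.1 CPM. The smallest fall of the list was that of Cdc25b, a phosphatase that activates Cdk1 (log2 fold change -1.61 ± 0.23, SE).

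The rest of the division machinery followed the same direction. Of 32 kinetochore and centromere genes tested, 31 fell, with a median of -2.81, Knl1 and Ndc80 reaching log2 fold changes of -3.94 and -3.89. Cenpt did not pass the test, at -0.15. Of 17 condensin and cohesin genes, 15 fell, with a median of -2.38. The condensin genes Smc2 and Ncapg had log2 fold changes of -3.08 and -3.53, the cohesin core genes Smc1a, Smc3 and Rad21 of -1.04, -0.99 and -1.52, and the cohesin genes Stag1 and Stag2 did not pass the test. Top2a, the topoisomerase that untangles sister chromosomes, had 536, 842 and 494 CPM at day 0 and 74.7, 84.5 and 43.7 CPM at day 7. With any 1 line left out, 31 kinetochore genes and all 41 mitotic genes fell, and 35 or 36 replication genes. Of 22 genes of repair by recombination, 19 fell, with a median of -2.73. In Top2a the days did not overlap.

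Regulators of the cycle moved less evenly. Of 17 genes of the E2F and DREAM group, 15 fell, with a median of -1.99. Uhrf1, which guides maintenance methylation of DNA, had 193, 238 and 114 CPM at day 0 and 16.5, 13.6 and 10.6 CPM at day 7, and the repressor genes E2f7 and E2f8 fell by 3.52 and 3.81 on the log2 scale. Foxm1, an activator of mitotic genes, went from 97.2, 184 and 92.8 CPM to 17.2, 13.5 and 11.2 CPM. E2f3 and Cdk2 did not pass the test, at -0.25 and -0.38. Among 14 CDK inhibitors, D cyclins and RB family genes, 1 rose and 4 fell. The rise was that of Ccng2, a cyclin known for high levels in resting cells, with 52.8, 45.9 and 46.7 CPM at day 0 and 124, 107 and 117 CPM at day 7, almost the same in the 3 lines. Cdkn1a and Cdkn1b, the genes of the inhibitors p21 and p27, did not pass the test, at -0.01 and 0.54. Ccnd1, cyclin D1, fell by 1.75 and Rbl1, the RB relative p107, by 2.33, while Rb1 and Rbl2 stood at -0.27 and 0.33 without passing the test. Replication-coupled histone genes went the other way: 7 of 17 tested rose and 0 fell, with a median of 0.62, and 4 rose without shControl. These genes are near-identical copies whose transcripts lack poly(A) tails, so their counts are uncertain. In bulk RNA, fewer dividing cells and less RNA per cell cannot be told apart for any of these genes.

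Elements named above were found in promoters of falling cycle genes, though not each element in each promoter. The promoters shown were chosen as examples. They are those of Cdk1, Kif11 and Ccnb1, of the mitotic list, of Mcm5, of the replication list, and of Idi1 and Sgk1, of lists described further on. Each is a stretch of 150 bases upstream of a RefSeq transcript start on GRCm38.p6, read 5′ to 3′ on the strand of the gene. It ends at the base before the start in Cdk1, Kif11, Ccnb1 and Idi1, and begins 200 bases before it in Mcm5 and 250 bases before it in Sgk1, where the start is one of several. Capitals mark matches on either strand to CCAAT, to the CHR letters TTTGAA, to the E2F sites TTTCCCGC, TTTGGCGC or TTTCGCGC, or, in Sgk1 alone, to the hexamer AGAACA that the glucocorticoid receptor is known to bind. A match on the other strand appears as its reverse complement.
Cdk1, chr10:69352913-69353062, minus strand: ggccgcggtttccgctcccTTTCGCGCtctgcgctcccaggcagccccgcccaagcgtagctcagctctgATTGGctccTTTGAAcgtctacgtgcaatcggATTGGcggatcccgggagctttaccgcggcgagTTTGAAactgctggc
Kif11, chr19:37376232-37376381, plus strand: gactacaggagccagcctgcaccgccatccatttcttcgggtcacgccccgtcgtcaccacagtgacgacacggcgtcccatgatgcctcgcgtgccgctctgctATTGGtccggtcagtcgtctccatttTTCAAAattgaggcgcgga
Ccnb1, chr13:100786487-100786636, minus strand: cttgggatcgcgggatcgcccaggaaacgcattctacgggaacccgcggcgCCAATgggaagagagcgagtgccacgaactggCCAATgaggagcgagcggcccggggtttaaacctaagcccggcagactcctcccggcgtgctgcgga
Mcm5, chr8:75109309-75109458, plus strand: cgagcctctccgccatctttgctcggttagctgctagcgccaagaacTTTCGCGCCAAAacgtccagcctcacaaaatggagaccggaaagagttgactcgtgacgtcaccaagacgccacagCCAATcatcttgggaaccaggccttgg
Idi1, chr13:8885456-8885605, plus strand: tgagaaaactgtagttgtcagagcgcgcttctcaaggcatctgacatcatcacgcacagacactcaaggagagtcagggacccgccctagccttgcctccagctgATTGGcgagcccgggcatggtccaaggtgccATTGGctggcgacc
Sgk1, chr10:21993640-21993789, plus strand: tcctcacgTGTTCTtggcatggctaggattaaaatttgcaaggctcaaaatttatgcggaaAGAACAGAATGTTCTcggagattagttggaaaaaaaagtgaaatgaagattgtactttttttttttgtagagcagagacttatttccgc
The window of Cdk1 holds CCAAT matches 80 and 48 bases before the start, CHR matches 71 and 15 bases before it and an E2F match 131 bases before it. That of Kif11 holds CCAAT at 45 and the CHR at 19 bases. Ccnb1 holds CCAAT at 99 and 67 bases and no match to the CHR letters. Mcm5 holds E2F matches at 153 and 149 bases, on opposite strands and overlapping, and CCAAT at 77 bases. Idi1 holds CCAAT at 45 and 14 bases. Sgk1 holds a full glucocorticoid response element, AGAACA and TGTTCT spaced by 3 bases, 189 bases before the start, within which lie the hexamers at 189 and 180 bases, and a further hexamer at 242 bases.

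Shares of promoters with a match were compared over windows from 250 bases before to 50 bases after the start, of which RefSeq gave 32851. CCAAT was found in 37.4% of all promoters, in 37.9% of those of genes tested, in 35.3% of those of rising genes and in 42.9% of those of falling genes. The CHR was in 17.9% of all promoters, 12.4% of those of genes tested, 11.6% of those of rising and 15.1% of those of falling genes. E2F sites were in 1.84%, 3.24%, 2.34% and 5.46%. In the mitotic list, with 37 promoters, CCAAT was in 78.4%, the CHR in 75.7% and both in 64.9%, against both in 5% of the promoters of genes tested. E2F sites were in 8.11% of the mitotic promoters. In the replication list, with 36 promoters, E2F sites were in 38.9%, CCAAT in 50% and the CHR in 19.4%. The matches describe letters, and promoters of genes tested also held more CpG (a median of 19 against 7 over all promoters). The median was 16 for promoters of rising and 22 for those of falling genes. The part of CpG in the shares of matches was not tested. Promoters could be matched for 10997 of the genes tested, 1747 of the rises and 2008 of the falls, and a gene can have several.

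**Figure D3:**
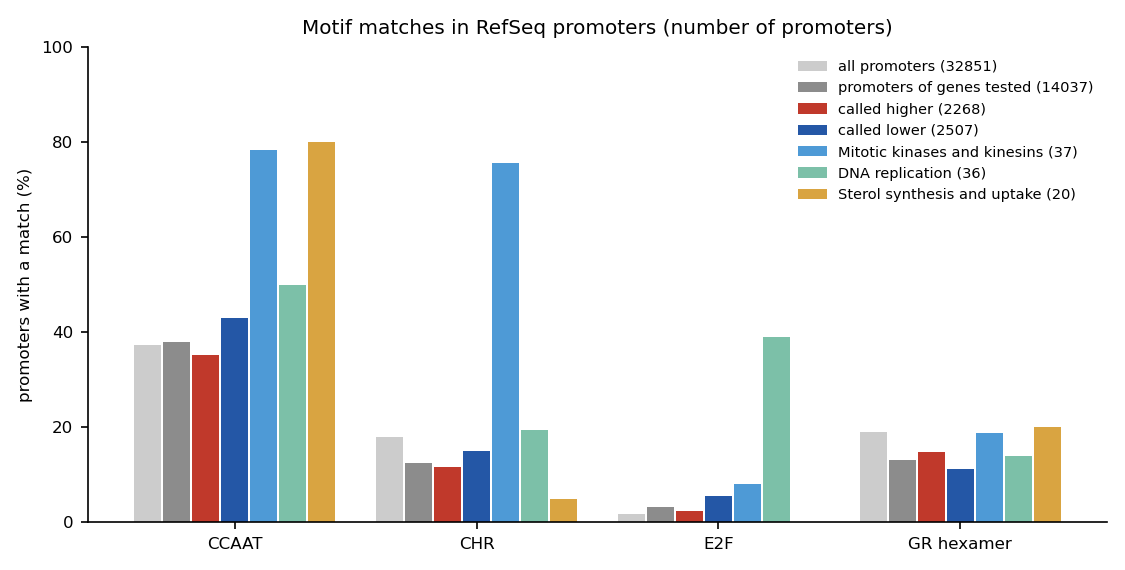
Share of RefSeq promoters (y axis, percent, from 0) with a match to CCAAT, the CHR, an E2F site or the glucocorticoid receptor (GR) hexamer (x axis), for all promoters, those of genes tested, called higher and called lower, and those of 3 lists whose members fell. The mitotic list stands at 78.4% for CCAAT and 75.7% for the CHR, the replication list at 38.9% for E2F, and the sterol list at 80% for CCAAT.

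Sterol synthesis was another group in which nearly every member fell. Of 24 genes tested, 22 fell and 0 rose, with a median of -2.56 (-2.87, -2.55 and -2.17 within the lines), and 20 were over 2-fold lower within every line. With 1 line left out, 20 to 24 fell. The summed level was 4200, 3290 and 2250 CPM at day 0 and 575, 470 and 391 CPM at day 7. Hmgcs1, at the entry to the mevalonate pathway, had 426, 379 and 98.6 CPM at day 0 and 46.2, 45.6 and 27.9 CPM at day 7. The days did not overlap, and its lower day 0 level in shMLL1 went with a smaller fall there (-3.20, -3.05 and -1.82). Enzymes of later steps fell as well: Idi1, whose promoter is shown above, went from 133, 86.3 and 56.7 CPM to 9.61, 3.35 and 3.32 CPM, and Sqle, which makes squalene epoxide, from 363, 312 and 194 CPM to 24, 15.4 and 19.2 CPM. Srebf2, the transcription factor that drives this pathway, fell too, from 368, 348 and 210.0 CPM to 41.8, 32.4 and 24.3 CPM. Insig1, which holds that factor's precursor in the endoplasmic reticulum, fell less (log2 fold change -1.23 ± 0.21, SE). Dhcr7 and Tm7sf2 did not pass the test, at -1.27 and -0.37. CCAAT was in 80% of the 20 promoters of the list, against 37.9% of those of genes tested. In lists described further on it ran from 0% of 9 promoters for complement to 84.2% of 19 for clock genes, which were divided in direction. Of the 24 genes, 7 overlap another gene on the opposite strand, Hmgcs1 and Idi1 among them.

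Fatty acid synthesis changed less. Of 16 genes tested 10 fell and 1 rose, with a median of -0.76, and 3 fell without shControl, at a median of -0.72. Acsl3, an enzyme that activates fatty acids, went from 122, 159 and 112 CPM to 18.4, 21.9 and 19.1 CPM and fell alike in the lines (-2.72, -2.86 and -2.55). Acly, which makes cytosolic acetyl-CoA, fell by 1.36, and Fasn, the fatty acid synthase, stood at -0.71 without passing the test. The rise was that of Acacb, the acetyl-CoA carboxylase that controls fatty acid entry into mitochondria, with 2.97, 1.9 and 1.69 CPM at day 0 and 16, 3.59 and 7.54 CPM at day 7. Of 27 genes of fatty acid oxidation 7 rose and 0 fell, with a median of 0.08, and 3 rose without shControl or 4 without shMLL1. Pdk4, a kinase that turns off pyruvate dehydrogenase and is known as a glucocorticoid and fasting gene, had 3.6, 12.7 and 2.92 CPM at day 0 and 172, 277 and 127 CPM at day 7 (log2 fold change 5.15 ± 0.31, SE), the largest rise of its list.

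Genes that supply amino acids fell in every line by the list median, with unequal size. Of 26 targets of the stress factor ATF4 and genes of amino acid supply tested, 16 fell and 1 rose, with a median of -1.97 and values of -1.89, -1.03 and -2.86 within the lines. Without shControl 10 fell, at a median of -2.12. Psat1, of serine synthesis, had 691, 741 and 1236 CPM at day 0 and 65.6, 82.5 and 53.4 CPM at day 7, and Phgdh, the first enzyme of that route, 449.8, 443 and 802 CPM at day 0 and 101.2, 99.3 and 91.6 CPM at day 7. For both the days did not overlap. Slc7a5, a carrier of large neutral amino acids, had 351, 359 and 471 CPM at day 0 and 12.7, 67.3 and 8.32 CPM at day 7. Asns, asparagine synthetase, had 279, 325 and 417 CPM at day 0 and 29.3, 98.7 and 13.8 CPM at day 7. In both shNFIB kept the highest day 7 level (-4.78, -2.41 and -5.81 for Slc7a5 and -3.25, -1.72 and -4.91 for Asns). Pycr1, of proline synthesis, fell alike in the lines, from 70.00, 55.5 and 46.8 CPM to 7.25, 4.8 and 5.25 CPM. Atf4 itself, Ddit3 and Slc7a11 did not pass the test, at -1.30, -0.76 and -1.58. The rise was that of Slc7a3, a carrier of basic amino acids, with 0.783, 0.823 and 1.62 CPM at day 0 and 3.05, 1.35 and 4.22 CPM at day 7.

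The translation machinery fell in part. Of 20 cytosolic tRNA synthetases 17 fell and 0 rose, with a median of -1.50, while 7 fell without shControl, at a median of -1.56. Aars, which charges alanine tRNA, went from 599.5, 649 and 602 CPM to 134, 231 and 72.2 CPM. Of 35 genes of ribosome biogenesis 17 fell, with a median of -0.81, with 2 falls without shControl, at a median of -0.72, and 7 without shMLL1. In those named shNFIB moved least: Nop58 changed by -1.46, -0.56 and -1.97 and Ddx21 by -1.44, -0.39 and -2.04. Of 39 cytosolic ribosomal protein genes 8 fell and 0 rose, with a median of -0.62, while 1 fell without shControl, at a median of -0.75, and 4 without shMLL1. Their many pseudogene copies make these counts uncertain. Of 27 chaperone and folding genes of the endoplasmic reticulum 10 fell and 0 rose, with a median of -0.61, and 2 fell without shControl, at a median of -0.59. A member that fell was Herpud1, of the pathway that removes misfolded proteins, which went from 116, 95.7 and 149.6 CPM to 39.1, 39.6 and 48 CPM. Among glycolytic enzymes Ldha, lactate dehydrogenase, had 779.6, 686 and 1307 CPM at day 0 and 195, 321 and 174 CPM at day 7 and Pkm, pyruvate kinase, 1447, 1798 and 1725 CPM at day 0 and 469.5, 864 and 297 CPM at day 7. Both fell, and the days did not overlap in either. In the whole list of glycolysis and hypoxia genes 8 of 26 fell and 2 rose, 1 fell without shControl, at a median of -0.72 against -0.65 with all lines, and the medians within the lines were -0.57, 0.24 and -1.75. Pfkfb3, which makes the activator of phosphofructokinase, was 1 of the rises, with 13.4, 7.25 and 5.53 CPM at day 0 and 49.1, 28.6 and 19.7 CPM at day 7. Of 31 nuclear genes of the respiratory chain and the citric acid cycle 10 fell and 0 rose, with a median of -0.48, and 0, 4 and 3 fell without shControl, shNFIB and shMLL1 in turn, the median without shControl being -0.61.

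Cytoskeletal and matrix genes were mixed in direction. Of 22 smooth muscle and actin genes tested 11 fell and 3 rose, with a median of -0.88. Without shControl 2 fell at a median of -0.82, and without shNFIB 7 fell. Acta2, smooth muscle actin, had 1516, 1491 and 1273 CPM at day 0 and 255, 130.1 and 163 CPM at day 7 (log2 fold change -3.02 ± 0.29, SE), and the cytoplasmic actin genes Actb and Actg1 had log2 fold changes of -1.09 and -1.34, or -1.11 and -1.30 without shControl, where neither was called. Srf, the factor that controls many of these genes, went from 52.4, 42.1 and 40.5 CPM to 25.9, 25.7 and 19.3 CPM. Mylk, myosin light chain kinase, rose, with 13.9, 7.82 and 12.9 CPM at day 0 and 83, 26 and 105 CPM at day 7. Of 25 collagen genes 6 fell and 3 rose, with a median of -0.19. Col1a1, the main collagen gene of bone, stood at 0.59 and Col1a2 at -1.05, and neither passed the test. Col8a1, a short-chain collagen gene, had 34.4, 53.8 and 142 CPM at day 0 and 1.51, 1.18 and 2.7 CPM at day 7 (log2 fold change -5.25 ± 0.31, SE). Col2a1, the main collagen gene of cartilage, had 223, 182 and 12 CPM at day 0 and 11, 1.76 and 2.21 CPM at day 7, with the lowest day 0 level in shMLL1. Its highest day 7 value, in shControl, lay just under its lowest day 0 value. Col11a2 rose, from 4.57, 9.25 and 5.96 CPM to 30.9, 23.8 and 42 CPM. Of 25 genes that fold and crosslink collagen 10 fell and 3 rose, at a median of -0.58. Without shControl 1 fell, at a median of -0.51, and without shNFIB 6 fell. Lox, lysyl oxidase, stood at 1891, 1989 and 2058 CPM at day 0 and 851, 997 and 960.3 CPM at day 7, and its relative Loxl4 at a log2 fold change of -3.04. Of 27 basement membrane and elastic fibre genes 7 fell and 3 rose, the largest fall being that of Fbln5, which helps assemble elastic fibres, with 990.5, 1000.3 and 385 CPM at day 0 and 63.4, 69.8 and 55.4 CPM at day 7. Fn1, fibronectin, had 5684, 6823 and 2647 CPM at day 0 and 747, 2786 and 1339.8 CPM at day 7. It fell by unequal amounts in the lines, at -2.93, -1.29 and -0.98, and its day 7 level in shNFIB lay above its day 0 level in shMLL1.

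Genes known to answer glucocorticoids rose in all lines. Of 30 listed, 27 had enough counts to be tested, and Tat, Cyp7b1 and Cdkn1c did not. Of the 27, 19 rose, all over 2-fold within every line, and 2 fell. The median was 2.32 (2.23, 2.77 and 2.2 within the lines), and 18 to 20 rose with 1 line left out. Fkbp5, a co-chaperone of the receptor, had 25.4, 29.5 and 18.8 CPM at day 0 and 273, 422 and 414 CPM at day 7, and every day 7 library lay above every day 0 library (log2 fold change 3.91 ± 0.28, SE, adjusted p = 0.000496). Tsc22d3, which encodes the protein GILZ, had 59.5, 60.8 and 75.3 CPM at day 0 and 428, 411 and 1181 CPM at day 7, highest in shMLL1 on both days. Sgk1, a kinase of ion transport and survival whose promoter with the full element is shown above, had 30.8, 27.3 and 17.8 CPM at day 0 and 299, 303 and 233 CPM at day 7. Rgs2, a regulator of G protein signalling, had 22, 24.7 and 21.2 CPM at day 0 and 284, 365 and 499.8 CPM at day 7. In these genes the days did not overlap and the within-line log2 fold changes were 3.27, 3.47 and 3.70 for Sgk1 and 3.69, 3.88 and 4.56 for Rgs2. Glul, glutamine synthetase, had 49.5, 106 and 22.8 CPM at day 0 and 399, 1579 and 426 CPM at day 7, highest in shNFIB on both days. Errfi1, a brake on the EGF receptor, had 21, 20.6 and 26.7 CPM at day 0 and 175, 267 and 539 CPM at day 7. Per1, a clock gene that the receptor also controls, rose by 2.00 on the log2 scale and Nfkbia, the inhibitor of NF-κB, by 1.20. Klf9, a zinc finger factor, rose from 34.3, 35.9 and 29.3 CPM to 119.9, 217 and 135 CPM. The metallothionein genes Mt1 and Mt2, near copies of each other, rose by 1.70 and 2.03.

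Other genes of the list had few or no counts in some or all day 0 libraries and more at day 7. Hif3a had 0 counts in every day 0 library and 3178, 1664 and 2768 counts at day 7, which is at least 593-fold higher than the 3 counts per library that a count of 0 allows. Zbtb16, the gene of the zinc finger protein PLZF, had 0 counts in every day 0 library and 1296, 133 and 154 counts at day 7, at least 47.4-fold higher. Hif3a and Zbtb16 therefore entered the test through their day 7 counts and could not have been counted as falls. With bounds in place of their fitted changes the median of the list was also 2.32. Sult1a1, a sulfotransferase, had 9, 12 and 7 counts at day 0 and 4854, 3518 and 4062 at day 7, and Fam107a had 265, 4 and 74 counts at day 0 and 15696, 7991 and 8095 at day 7. The receptor gene Nr3c1 itself fell, with 145, 172 and 108 CPM at day 0 and 44.5, 102 and 74.3 CPM at day 7, and the other fall was that of Lox. Dusp1, Cebpd, Ddit4, Lcn2, Hsd11b1 and Anxa1 did not pass the test, with log2 fold changes of 0.11, 0.35, 0.35, 2.77, 1.34 and 0.45. The glucocorticoid receptor hexamer was in 24.2% of the 33 promoters of the list. It was in 19% of all promoters, 13.1% of those of genes tested, 14.8% of those of rising and 11.2% of those of falling genes. Small lists varied widely: the hexamer was in 36.4% of 11 promoters of the phosphate and mineralization list and 0% of 22 of the collagen list. The full element was in 1 of the 2268 promoters of rising genes, that of Sgk1 shown above, in 0 of the 2507 of falling genes and in 3 of all 32851, too few to compare.

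**Figure D4:**
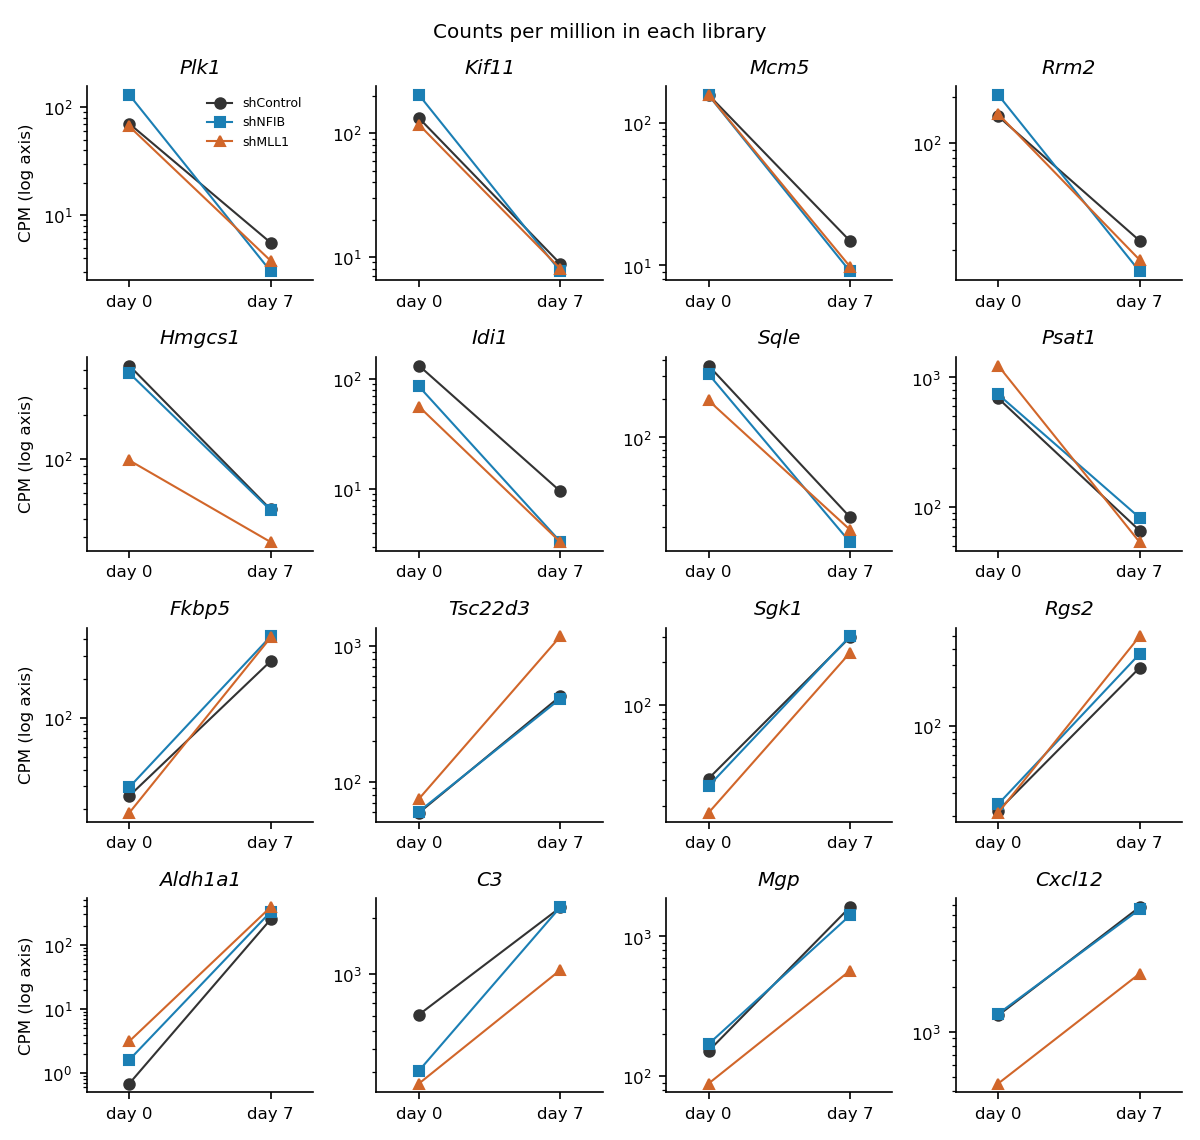
Level in each library (y axis, CPM on a log axis with its own range in each panel) at day 0 and day 7 (x axis) for 16 genes, with a line joining the libraries of shControl (black circles), shNFIB (blue squares) and shMLL1 (orange triangles). The 8 genes of the upper panels fell in all lines and the 8 of the lower panels rose in all lines, and in each panel the points of one day lie above those of the other.

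Clock genes were divided. Of 17 tested, 2 rose, Per1 among them, and 5 fell. Nr1d2, a repressor of the clock, had 196, 198 and 204 CPM at day 0 and 50.1, 47.4 and 46.6 CPM at day 7, a fall that was almost the same in the lines (-1.96, -2.06 and -2.13), and Dbp, an output factor, fell from 44.8, 42.5 and 22.3 CPM to 13.5, 6.19 and 8.44 CPM. Clock and Arntl, which form the activator of the clock, stood at -0.32 and 0.23 without passing the test. The hour of harvest is not given in the sources used here.

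Genes of retinoid and aldehyde metabolism held 2 of the 15 largest rises. Of 19 tested 8 rose and 2 fell, with a median of 0.86. Aldh1a1, a retinal dehydrogenase, had 0.689, 1.62 and 3.15 CPM at day 0 and 252, 329.7 and 391 CPM at day 7 (log2 fold change 7.65 ± 0.39, SE) and its close relative Aldh1a7 had 0.939, 3.71 and 6.33 CPM at day 0 and 187, 255 and 729 CPM at day 7. These genes are similar enough that reads may be shared between them or dropped by the filter on mapping quality. Dhrs3, which turns retinal back to retinol, had 18.7, 12.5 and 10.5 CPM at day 0 and 209, 356 and 247 CPM at day 7, and Adh1, an alcohol dehydrogenase, had 8.7, 2.53 and 0.298 CPM at day 0 and 41.5, 40.4 and 7.66 CPM at day 7, with the day 7 value of shMLL1 under the day 0 value of shControl. Rarres2, the gene of the secreted protein chemerin, had 34, 4 and 4 counts at day 0 and 2986, 1649 and 867 at day 7. Crabp2 and Rdh10 fell, by 1.61 and 1.05.

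Some genes of secreted defence and hormone proteins rose. Of 17 complement genes tested 9 rose and 3 fell, with a median of 1.39. C3, the central component, had 609, 306 and 262 CPM at day 0 and 2269.9, 2281 and 1054 CPM at day 7 (log2 fold change 2.27 ± 0.31, SE) and C1s1, a protease of the classical pathway, 161, 162 and 73.6 CPM at day 0 and 357, 493 and 304 CPM at day 7. The days did not overlap in either gene. C4b rose from 10.6, 2.91 and 4.54 CPM to 329, 59 and 67.3 CPM, though it shares sequence with C4a. Clu, a fluid-phase complement regulator, had 75, 12.1 and 8.45 CPM at day 0 and 591, 402 and 201 CPM at day 7. Of 10 angiotensin and natriuretic genes 6 rose and 0 fell, and 3 rose without shControl, at a median of 1.28. Among them Anpep, an aminopeptidase that trims angiotensin peptides, went from 35.9, 36.4 and 11.3 CPM to 162, 249 and 119.6 CPM. Npr3, the natriuretic peptide clearance receptor, had 9.83, 51.9 and 19 CPM at day 0 and 97.9, 231 and 40.7 CPM at day 7, with a day 7 value in shMLL1 under the day 0 value of shNFIB. Of 25 chemokine, cytokine and receptor genes 3 rose and 4 fell. Cxcl12, a chemokine of stromal cells, had 1282, 1314 and 449.7 CPM at day 0 and 6781, 6539 and 2435 CPM at day 7, and its change within the lines was 2.40, 2.32 and 2.44, the most even of the rises over 4-fold where no library fell under 10 counts.

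Matrix proteases and the handling of oxidants showed more rises than falls. Of 28 protease and inhibitor genes tested 10 rose and 5 fell, with a median of 0.67. Mmp2, a gelatinase, had 268, 378 and 214 CPM at day 0 and 872, 1157 and 1387 CPM at day 7 and Mmp14, the membrane protease that activates it, 512, 425 and 262 CPM at day 0 and 953, 1514 and 873 CPM at day 7, with no overlap of the days. The inhibitor genes Timp1 and Timp3 fell, by 1.77 and 1.45, while Timp4 went from 1, 1 and 3 counts to 742, 155 and 151. Of 31 NRF2 and glutathione genes 7 rose and 2 fell, with a median of 0.36, and 13 rose without shMLL1. The medians within the lines were 0.64, 1.04 and -0.34, so that of shMLL1 lay on the other side of 0. Prdx6, a peroxiredoxin, had 126, 153 and 207 CPM at day 0 and 637, 1139.6 and 693 CPM at day 7 and Mgst1, a microsomal glutathione transferase, 36.4, 56.1 and 86.5 CPM at day 0 and 325, 423 and 262 CPM at day 7. Gpx1, a glutathione peroxidase, fell by 1.25. Of 28 autophagy genes 5 rose and 2 fell, among the rises Gabarapl1, which builds autophagosome membranes, with 96.6, 106 and 104 CPM at day 0 and 301, 468 and 319.7 CPM at day 7. Of 37 lysosome genes 5 rose and 5 fell. The shares of rises in the autophagy and lysosome lists were not far from the 16.8% of all genes tested.

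Of 24 osteoblast genes 14 had enough counts to be tested, 2 rose and 1 fell, with a median of 0.61 that was 1.53, -0.16 and 0.36 within the lines. This count of rises was near the share of rises among all genes tested, and without shControl 0 rose. Runx2, the master factor of bone, had 32.8, 31.4 and 32.2 CPM at day 0 and 117, 30.4 and 35.3 CPM at day 7 and did not pass the test (log2 fold change 0.63 ± 0.38, SE, adjusted p = 0.227): it was higher at day 7 in shControl and changed by 1.83, -0.05 and 0.13 in the lines. Alpl, the alkaline phosphatase of mineralizing cells, rose, but from 7, 8 and 0 counts to 111, 215 and 2, with shMLL1 near 0 on both days. Sp7, Ibsp, Bglap and Bglap2 were not tested: Sp7 had 1, 1 and 1 counts at day 0 and 7, 2 and 0 at day 7, and Ibsp had 0 in every library, which allows up to 0.123 CPM in the smallest. Tnfrsf11b, which encodes osteoprotegerin, fell, with 354, 85.6 and 227 CPM at day 0 and 59.1, 23.7 and 29.5 CPM at day 7. Mgp, an inhibitor of mineralization in the list of phosphate genes, rose, with 151, 169.7 and 88.4 CPM at day 0 and 1624, 1415 and 569 CPM at day 7 (log2 fold change 3.06 ± 0.27, SE). The phosphate carrier gene Slc20a1 fell from 50.6, 72 and 74.1 CPM to 29.2, 38.4 and 23.5 CPM, and its relative Slc20a2 fell too (log2 fold change -0.76 ± 0.22, SE). In that list of 12 genes 4 rose and 3 fell.

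Of 25 fat storage genes 17 had enough counts to be tested, and of these 10 rose and 0 fell. Without shControl 3 rose, and the median went from 1.44 to 1.02. Plin1, Cidec and Cfd, markers of mature fat cells, had 0 counts in every day 0 library. They therefore entered the test through their day 7 counts and could not have been counted as falls. At day 7 Cfd had 2129, 22 and 45 counts, Cidec 681, 5 and 17 and Plin1 472, 9 and 28, so nearly all of the signal was that of shControl. Plin4 and the lipases Pnpla2 and Lipe had at least 193 counts in every library and rose, with log2 fold changes of 2.48, 1.41 and 1.44. Without shControl these were 2.47, 1.19 and 1.08, and Pnpla2 and Lipe were no longer called (adjusted p = 0.0529 and 0.125). Adipoq, adiponectin, was not tested, with at most 1 count in any library. Among 18 regulators of fat cells 4 rose and 5 fell: Pparg, the main one, had 27.1, 52.2 and 12 CPM at day 0 and 42, 84.2 and 20.9 CPM at day 7, a change of 0.63, 0.69 and 0.79 within the lines although the days overlapped between lines, and Cebpb fell from 18, 18.7 and 18.8 CPM to 6.86, 6.94 and 8.11 CPM. Of 15 cartilage genes 5 rose and 2 fell. Their median was 0.79, with -0.3, 0.64 and 2.35 within the lines, and it was -0.11 without shMLL1. Comp, a cartilage matrix protein, rose from 0.939, 0.19 and 0.563 CPM to 25.2, 5.07 and 13.2 CPM, and Sox9, the master factor, stood at -0.05 without passing the test.

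Signalling lists were divided. Of 24 TGF-β genes 9 fell and 3 rose, and 4 fell without shControl. Inhba, an activin subunit, fell by 3.08, its relative Inhbb went from 76, 84 and 207 counts to 7, 7 and 13, and Tgfbr3, a co-receptor, rose from 24.2, 45 and 23 CPM to 59.2, 114 and 114 CPM. Of 20 BMP genes 3 rose and 2 fell, Grem1, a secreted BMP antagonist, falling from 113, 219.8 and 463 CPM to 29.7, 115 and 63.4 CPM, with days that overlapped between lines. Of 17 Wnt genes 2 rose and 3 fell, of 16 insulin-like growth factor genes 0 rose and 5 fell, and of 23 Notch, Hedgehog and FGF genes 5 rose and 6 fell. Gli3, the repressor of Hedgehog targets, had 59.1, 59.3 and 57.4 CPM at day 0 and 23, 22.3 and 19.5 CPM at day 7, alike in the lines. Igfbp7, a secreted binding protein, fell from 263, 668 and 329 CPM to 93.4, 158 and 81.6 CPM. Of 22 YAP and TAZ targets 3 rose and 4 fell, and of 25 immediate early genes 4 rose and 4 fell, which are shares near the background in each direction. Of 24 Polycomb and DNA methylation genes 2 rose and 5 fell, the rises including Ezh1, which had 57.7, 73.3 and 35.1 CPM at day 0 and 205, 174 and 286 CPM at day 7, and the falls its paralog Ezh2, with 54, 81.8 and 60.6 CPM at day 0 and 22, 19.2 and 21.8 CPM at day 7. Of 14 Hox and limb genes 3 rose and 0 fell, and of 11 imprinted growth genes 0 rose and 2 fell.

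The 15 largest rises and 15 largest falls crossed these lists. They were taken where no library fell under 10 counts. The largest rise was that of Ctla2a, a cysteine protease inhibitor, with 0.376, 8.65 and 9.87 CPM at day 0 and 1285, 4268 and 1766 CPM at day 7 (log2 fold change 9.12 ± 0.90, SE), a gene with a close copy, Ctla2b, that may share reads. Dpep1, a membrane dipeptidase, had 9.86, 2.5 and 0.696 CPM at day 0 and 1397, 828 and 611 CPM at day 7 (log2 fold change 8.32 ± 0.60, SE) and Gdpd2, a phosphodiesterase, 2.94, 0.57 and 0.398 CPM at day 0 and 169.8, 104 and 186 CPM at day 7. In each of these genes the lowest day 7 library stood far above the highest day 0 library. Apod, a lipocalin, had 18.4, 2.98 and 21.8 CPM at day 0 and 706, 1256 and 1098 CPM at day 7, and Selenop, the plasma carrier of selenium, had 234, 201 and 125 CPM at day 0 and 3339.5, 7187 and 4091 CPM at day 7. Hp, haptoglobin, rose from 13, 1.3 and 3.74 CPM to 231, 134 and 107 CPM. Sned1, a matrix protein, had the least even rise of the set, 3.41, 3.77 and 8.27 within the lines (adjusted p = 0.0132). Outside the groups above, the largest falls were those of Anxa8, a membrane-binding annexin, with 148, 306 and 178 CPM at day 0 and 7.38, 14 and 9.59 CPM at day 7, and Serpinb1a, a protease inhibitor, with 173, 357 and 193 CPM at day 0 and 7.02, 19.4 and 11 CPM at day 7. Zdhhc2, a palmitoyltransferase, fell from 24.3, 21.1 and 28.5 CPM to 1.94, 0.778 and 1.19 CPM and Diaph3, an actin-nucleating formin, from 98, 139 and 76.1 CPM to 6.69, 8.22 and 3.36 CPM. In none of the 15 rises and 15 falls did the days overlap, as in 44.6% of genes tested and 87.3% of those called. Of the rises 5, and of the falls 7, overlap another gene on the opposite strand, whose reads could not be told apart if the counting did not use strand.

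**Figure D5:**
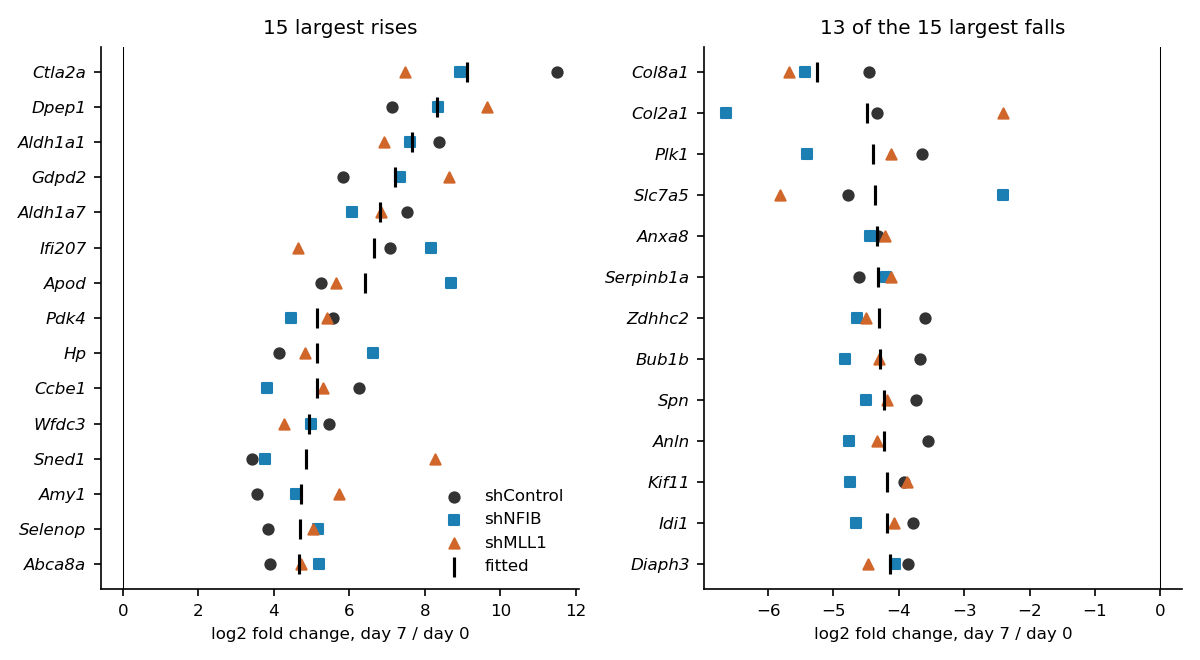
Log2 fold change at day 7 against day 0 (x axis) within shControl (circles), shNFIB (squares) and shMLL1 (triangles) and in the fit over the lines (black ticks) for the 15 largest rises (left) and 13 of the 15 largest falls (right), 1 gene a row. All symbols lie on the same side of 0, from a fitted 9.12 for Ctla2a to -5.25 for Col8a1, and the lines spread most for Sned1 and Col2a1.

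Genes were also chosen for the evenness of their change, which is therefore a description and not a result. Among called genes over 4-fold in the fit, the 10 rises and 10 falls with the smallest spread between lines were named. Adgrg6, an adhesion G protein-coupled receptor, had 153, 79.7 and 109 CPM at day 0 and 19.3, 10.2 and 13.4 CPM at day 7, and changed by -2.99, -2.96 and -3.02 within the lines. Cyb5a, cytochrome b5, rose from 144, 177 and 88.5 CPM to 859, 1177 and 581 CPM, and Sphk1, sphingosine kinase, from 14.3, 7.35 and 17.5 CPM to 135, 82.8 and 185 CPM. Rhobtb1, an atypical small GTPase gene, had 10.2, 3.33 and 5.2 CPM at day 0 and 44.6, 15.3 and 25.2 CPM at day 7. Emp1, an epithelial membrane protein gene, fell from 679.5, 871 and 659 CPM to 165, 182 and 152 CPM, and Usp1, a deubiquitinase of DNA repair, from 99.2, 136 and 94.1 CPM to 21.4, 33.6 and 20.00 CPM. Sgms2, a sphingomyelin synthase, fell by 2.24.

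By contrast, some genes with a large change in shControl were not called. Gabbr1, a GABA receptor subunit, had 35.3, 11.4 and 15.1 CPM at day 0 and 279, 10.4 and 20.00 CPM at day 7 and an adjusted p of 0.197. Penk, the enkephalin precursor, had 12.6, 2.12 and 3.05 CPM at day 0 and 1.44, 22.8 and 68.1 CPM at day 7: it was lower at day 7 in shControl and higher in the other lines (-3.07, 3.38 and 4.45, adjusted p = 0.304). Col28a1 had 64.7, 11.2 and 15.3 CPM at day 0 and 5.18, 6.83 and 8.28 CPM at day 7 (adjusted p = 0.0607). Of 40 interferon response genes 2 rose and 1 fell, against 16.8% and 16.6% of all genes. Their medians within the lines were 0.34, 3.08 and -1.40. Ifi27, which rose, had 161, 112 and 80.02 CPM at day 0 and 323, 219 and 306 CPM at day 7. Isg15, a ubiquitin-like interferon gene, had 38.1, 1.33 and 492 CPM at day 0 and 32, 55.6 and 40.6 CPM at day 7 and did not pass the test (adjusted p = 0.997). Within-line values of this kind rest on 1 library a side and have no replicate check.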

How the data were processed

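RNA from 6 cultures was sequenced, 1 library for each line and day. The authors deposited raw counts per gene in 1 table. Per the labels and the submitters' processing notes, reads from a TruSeq kit were trimmed with Trimmomatic 0.39, aligned to mm10 with HISAT2 2.2.1, filtered on mapping quality with SAMtools 1.12, cleared of PCR duplicates and counted with HTSeq 0.11.1. A quality filter tends to drop reads that fit several places, so genes with near copies may be undercounted, and removing duplicates without molecular identifiers can lower the counts of abundant genes. The strand setting and the annotation release are not given in the sources used here. Replicates of a line and day were not given, so p-values measure the spread of the change between lines.

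Counts were tested with edgeR 4.0.16 in R 4.3.3 (TMM scaling, a filter on low counts, a quasi-likelihood test with the line as block, and p-values adjusted by Benjamini-Hochberg at 5%), which left 16660 of 55401 genes. The block was used because both days of a line come from the same derivative, in separate cultures. The day 0 and day 7 libraries of a line deviated together from the means of their days, with correlations of 0.427, 0.429 and 0.274. Log2 fold changes within a line used a prior count of 2. Gene names came from the GENCODE annotation of GRCm38, and 260 identifiers had no entry. Promoters came from RefSeq on GRCm38.p6.

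Members and gene lists were chosen with earlier results of these data known. Genes were named as list members, as the 15 largest rises and falls with at least 10 counts in every library and over 2-fold in every line, as the 10 most even rises and falls over 4-fold, as the 5 largest rises and falls in shControl that were not called, and as hairpin targets. Alternatives were other scalings, no filter, DESeq2 1.42.0, no block, each line left out, thinned counts, a fold criterion of 2, protein-coding genes alone and, chosen after seeing the data, scaling without mitochondrial genes. Certain genes are not reported here. The scripts were tested on simulated data. Counts of 3 per library were taken as what a count of 0 allows, for counting error only, which was 0.0939 to 0.123 CPM.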

Additional observations from a re-analysis of the deposited data

Results flagged for a closer look

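List medians and the uncalled genes chosen for a large change in shControl were searched for changes over 2-fold in opposite directions in the lines. This marked 3 results, and in each the difference between the lines was not tested, since each line and day had 1 library. Other genes were not searched in this way, and Isg15, described above, also moved in opposite directions in shNFIB and shMLL1. The interferon response list had medians of 0.34, 3.08 and -1.40 within shControl, shNFIB and shMLL1, so that the highest and the lowest line were 4.48 apart on the log2 scale. Penk, the enkephalin precursor, changed by -3.07, 3.38 and 4.45, a range of 7.52. Mc5r, a melanocortin receptor, changed by 4.21, -1.05 and 2.07, a range of 5.26, with 0.313, 2.31 and 0.994 CPM at day 0 and 6.95, 1.08 and 4.38 CPM at day 7. Groups of 3 libraries were not examined for outlying samples.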

How the results depend on the processing

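Of 2796 rises and 2760 falls, none changed sign under any alternative in which the gene was tested. Nearly all had the same sign in every line, so leaving out a line could hardly reverse them. Without shControl, 33.6% of these rises and 38.3% of these falls stayed called. Leaving out each line in turn gave 967 to 2534 rises and 1076 to 2666 falls, the lowest without shControl in both directions, 344 to 585 called list members, and glucocorticoid medians of 2.17 to 2.75. Without the line as a block, so without the pairing of the days, 2104 genes rose and 1792 fell. A fold change over 2 left 2283 rises and 1755 falls. Other scalings, no filter, DESeq2, thinned counts and the omission of mitochondrial genes left 2533 to 3287 rises and 2116 to 3240 falls. Protein-coding genes alone gave 1968 rises and 2509 falls. List medians crossed 0 for epithelium (0.02) and for macrophage and blood (0) with no filter, where genes with few counts enter. With a line left out, so did fatty acid oxidation (-0.01 to 0.13). In these lists the median with all lines lay further from 0 than the standard deviation of the line medians. Lists with medians nearer 0 by that measure crossed too with a line left out. Among them, small leucine-rich proteoglycans ran from -0.23 to 1.61, cartilage from -0.11 to 1.02, the interferon response from -0.69 to 1.62 and collagens from -0.66 to 0.2. Of the named genes that were not called, log2 fold changes near 0 changed sign. With a line left out, Arntl ran from -0.28 to 0.75, Cdkn1a from -0.25 to 0.13, Cenpt from -0.43 to 0.14, Dusp1 from -0.05 to 0.30, Isg15 from -1.93 to 2.29, Kmt2a from -0.06 to 0.10, Rb1 from -0.69 to 0.01, Runx2 from 0 to 0.99 and Sox9 from -0.35 to 0.21. With library size alone Cdkn1a was at 0.12 and Sox9 at 0.09, without the block Cdkn1a was at 0.01 and Isg15 at -2.05, and with thinned counts Isg15 was at -0.12. With residual variation from 3 lines, changes of small size cannot be told from noise: the smallest fitted change that was called was 0.54 on the log2 scale.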

Other observations

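Noncoding genes held more rises than their share. Of 1761 long noncoding RNA genes tested, 30.4% rose and 3.98% fell, with a median log2 fold change of 0.97, where 15.1% of 13001 protein-coding genes rose and 19.3% fell, with a median of -0.08. Among long noncoding and unclassified transcript genes together, 26.2% of the 588 that overlap no other gene rose, 30.5% of the 607 with a same-strand overlap and 32.3% of the 1039 with an opposite-strand overlap alone. Depth moves with this: protein-coding genes with a mean count under 100 rose in 23.8% and fell in 9.36% of 2276 cases, and noncoding genes with a mean count of 100 or more rose in 44.8% and fell in 6.55% of 397. The part of low counts in the difference was not tested beyond these values.

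Transcripts made inside the mitochondrion and those made for it in the nucleus differed in direction of their medians. Of 12 mitochondrially encoded protein genes tested, a set chosen after their values were seen, 7 rose and 0 fell, with a median of 1.24 (1.77, 0.71 and 1.03 within shControl, shNFIB and shMLL1). The 31 nuclear genes of the respiratory chain and the citric acid cycle had a median of -0.48.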
